A study of Caenorhabditis elegans with 3 samples.

Results

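Ligand-gated ion channels open when a neurotransmitter binds to them, and they carry fast signals between neurons and from neurons to muscle. In *Caenorhabditis elegans* most of them are cys-loop receptors, rings of subunits that pass cations or chloride and are gated by acetylcholine, GABA, glutamate or amines, while the ionotropic glutamate receptors form a separate family. The channel subunit genes described here were chosen by name alone, as the numbered *acr*, *lgc*, *glr* and *nmr* genes together with *unc-29*, *unc-38*, *unc-49*, *unc-63*, *exp-1* and *mod-1*. Of 95 such names in the RefSeq gene table, 76 had a probe of their own and 74 had a value on all 3 arrays, among 14936 named genes and 19075 features tested. These 74 comprised 17 *acr*, 42 *lgc*, 9 *glr* and 2 *nmr* genes, with *unc-29*, *unc-38*, *unc-49* and *exp-1*. The other 19 names, *unc-63* and *mod-1* among them, were not analysed here.

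RNA of mid-L3 hermaphrodites was set against a mixed wild-type reference RNA, on 3 arrays with 2 colours each. L3 is the penultimate larval stage. Each array carried 1 of 3 preps labelled TP01 mid-L3, an abbreviation the labels do not explain, and the labels state neither a genotype for these animals nor what the reference was mixed from. They do not say either whether the preps were separate cultures, so p-values rest on the spread between these preps, which may be technical. For each gene, limma moderates that spread towards the spread of all features. The unit throughout is the log2 ratio of the 2 channels, centred on each array's median. Errors are SD with n = 3 preps, the threshold is an adjusted p under 0.05 (limma, Benjamini-Hochberg over all features), and intervals are limma's 95% intervals. Which channel is the numerator is not stated. Mid-L3 comes first in the labels' wording, and of 15 oocyte and eggshell genes, whose products belong to the adult germline, 13 were negative and 0 positive past the threshold in limma (13 at an unadjusted p under 0.05, all negative). A ratio of mid-L3 over reference is therefore the likely direction, and signs are given as deposited.

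The channel subunit genes lay close to a ratio of 1, with few exceptions. Of the 74 genes, 6 passed the threshold, 4 with a positive and 2 with a negative mean. Over all features 27.3% passed, 13.5% positive and 13.8% negative, so the share of subunit genes past the threshold, 8.11%, was below that background. The means had a median of -0.01 and a range from -0.55 to 1.77, and the middle of the distribution was narrower than that of all features, with interquartile ranges of 0.37 and 0.60. Only 2 of the 74 genes (2.70%), *lgc-12* and *lgc-22*, had a mean more than 1 log2 unit from 0, against 12.8% of all features. For 69 of the 74 genes the 95% interval lay wholly within 1 log2 unit of 0, so a difference above 2-fold in either direction lay outside their intervals. The median half-width of the intervals over the 74 genes was 0.42. The smallest absolute mean that passed was 0.55 and the largest that did not was 0.58. A spot's brightness was not part of the values, so a ratio near 0 could not be told apart from a dim spot.

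**Figure D1:**
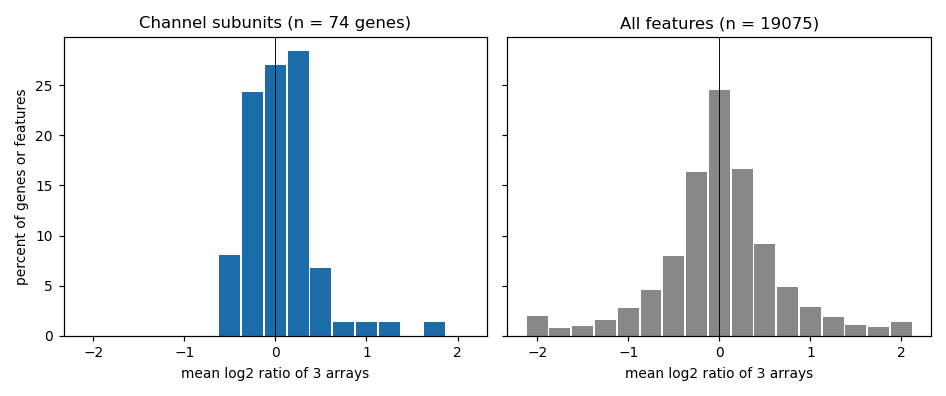
Histograms of the mean log2 ratio of 3 arrays in bins of 0.25, as a percent of the 74 channel subunit genes (left) and of all 19075 features (right), with values beyond the axis counted in the end bars. The subunit genes sit between -0.55 and 1.77, and 65 of them lie within 0.5 of 0.

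The highest gene was *lgc-12*, a cys-loop subunit gene on chromosome III whose ligand is not given in the sources used here. Its ratios were 2.20, 1.58 and 1.52 in preps 1, 2 and 3, the only gene of the 74 above 1.5 on every array. The mean was 1.77 ± 0.38, a 3.40-fold difference, with an interval from 1.32 to 2.21 and an adjusted p of 5.02e-05 in limma. It was also the only gene of the 74 that passed a limma test against 1.5-fold, and it passed under each of the 15 alternatives tried.

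Next by mean, *lgc-22* on chromosome IV did not hold to one direction. Its ratios were 2.39 and 1.81 in preps 1 and 2 but -0.49 in prep 3. The mean of 1.24 ± 1.52 passed at an adjusted p of 0.03966 in limma, although its SD was the largest among the 74 genes. In that test 9.8 degrees of freedom came from the prior over all features and 2 from the arrays. The call was lost without prep 1 (adjusted p = 0.09089 in limma), without prep 2 (0.3725) and with robust moderation of the variances (0.3291).

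The other positive genes had smaller means and were positive on every array. *lgc-45*, a subunit gene on chromosome II, had 1.02, 1.12 and 0.54 in preps 1, 2 and 3. Its mean was 0.89 ± 0.31, a 1.86-fold difference with an adjusted p of 0.004771 in limma. *lgc-39* on chromosome V encodes a channel reported to open to acetylcholine and to amines, and had 0.50, 1.35 and 0.71. Prep 2 was the high array for this gene, and the mean of 0.85 ± 0.44 (limma adjusted p = 0.009507) became 0.60 without it, with an adjusted p of 0.05976 in limma.

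Both negative genes were near the threshold. *lgc-44* on chromosome V had -0.55, -0.44 and -0.67 in preps 1, 2 and 3, a mean of -0.55 ± 0.11 with an adjusted p of 0.04274 in limma. *lgc-30* on chromosome IV had -0.59, -0.70 and -0.35, a mean of -0.55 ± 0.18 with an adjusted p of 0.04749 in limma. All arrays were negative for these 2 genes, which correspond to 1.47-fold and 1.46-fold differences. Neither call was kept when any 1 prep was left out, with adjusted p from 0.05507 to 0.2918 in limma.

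**Figure D2:**
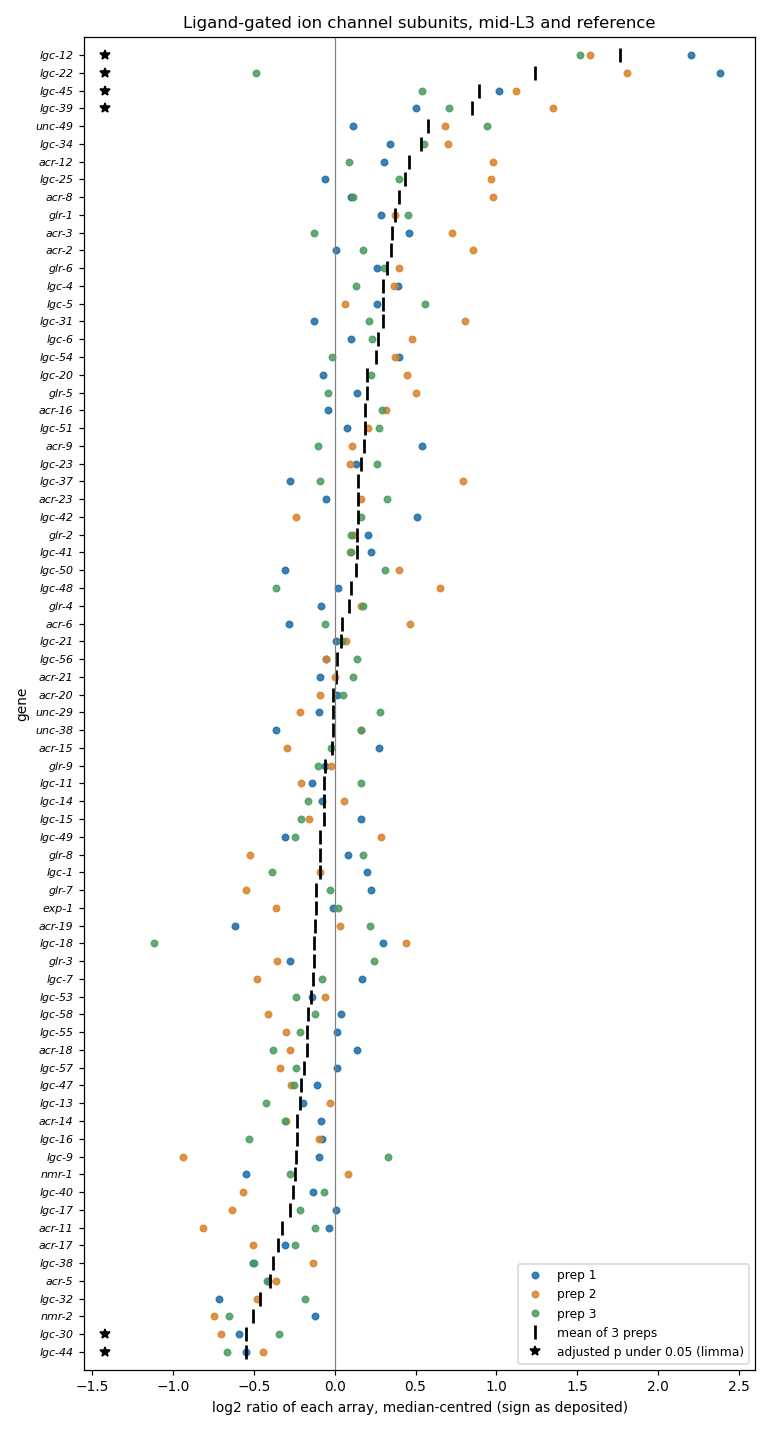
Log2 ratios of the 74 channel subunit genes, one row per gene ordered by mean, with a coloured point for each of the 3 preps, a black bar for their mean and a star where the adjusted p was under 0.05. The stars mark *lgc-12*, *lgc-22*, *lgc-45* and *lgc-39* at the top and *lgc-30* and *lgc-44* at the bottom, and in most other rows the 3 points lie on both sides of 0.

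Acetylcholine-gated cation channels of the levamisole-receptor groups leaned to positive ratios without passing the threshold. These groups hold the subunits of the muscle receptor opened by the anthelmintic levamisole and of a related receptor of motor neurons. Of the muscle subunits, *unc-29* and *unc-38* were close to 0. *unc-29* had ratios of -0.10, -0.22 and 0.28 in preps 1, 2 and 3, and *unc-38* had -0.36, 0.16 and 0.16, with means of -0.01 ± 0.26 and -0.01 ± 0.30 (limma adjusted p = 0.9772 and 0.9736). Their intervals ran from -0.43 to 0.41 and from -0.44 to 0.41. The motor neuron receptor subunits *acr-2*, *acr-3* and *acr-12* and the related alpha subunit *acr-8* had means from 0.35 to 0.46, but the size of these means came largely from 1 array. In prep 2 these 4 genes ranged from 0.73 to 0.98, and in preps 1 and 3 from -0.13 to 0.46. The median over the 7 of the 74 genes that belong to these groups was 0.73 in prep 2, against 0.01 in prep 1 and 0.11 in prep 3. Prep 2 was also the most widely spread array over all features. Their interquartile range was 0.95 in prep 2, against 0.68 in prep 1 and 0.62 in prep 3. Of the 7 subunit genes 0 passed in limma (0 also at an unadjusted p under 0.05), while 27.3% of all features passed. *acr-12*, the highest, was at 0.46 ± 0.47 (limma adjusted p = 0.1414).

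The *acr-16* and *deg-3* groups of acetylcholine receptor subunits lay around 0 or slightly below. *acr-16*, which forms the nicotine-sensitive receptor of body wall muscle, had -0.04, 0.32 and 0.29, a mean of 0.19 ± 0.20 and the highest of the 7 genes of its group among the 74. The lowest was *acr-11* at -0.32 ± 0.43, with -0.82 in prep 2 and -0.04 and -0.12 in preps 1 and 3. In the *deg-3* group, the 5 genes among the 74 ran from *acr-23*, a betaine-gated channel subunit, at 0.14 ± 0.19 to *acr-5* at -0.40 ± 0.03, with a median of -0.17. *deg-3* itself, whose name the choice of members did not take, had 0.57, 0.84 and 0.19, a mean of 0.53 ± 0.33 above all of these (limma adjusted p = 0.06608). Over both groups 0 of these 12 genes among the 74 passed in limma, while 27.3% of all features passed. Without adjustment *acr-5* alone of the 12 was under 0.05.

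Averaging hid a disagreement between probes in *acr-5*, one of 3 subunit genes with more than 1 probe. Its gene means of -0.41, -0.36 and -0.42 gave one of the smallest SDs of the 74, yet its probes read 0.39 and -1.11 in prep 2. *glr-2* showed the same in prep 2, at -0.49 and 0.72, and so did *glr-4*, at 0.80 and -0.47. In preps 1 and 3 the probes of these genes differed by less. Prep 2 was the array with the widest spread over all features, as given above.

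GABA-gated subunits spread to both sides. *unc-49*, which encodes the inhibitory GABA receptor of body wall muscle, had 0.12, 0.68 and 0.94 in preps 1, 2 and 3. It was positive on every array, and its mean of 0.58 ± 0.42 just missed the threshold (limma adjusted p = 0.0579). *exp-1*, a cation channel by which GABA excites the enteric muscles, was at -0.12 ± 0.21, and *lgc-38* was the lowest of the 4 such genes among the 74 at -0.38 ± 0.21. Centring within sectors of the array moved *unc-49* past the threshold, at 0.70 with an adjusted p of 0.02712 in limma. It moved *lgc-34*, a positive gene without a class here (0.53 ± 0.18, limma adjusted p = 0.05235), past it as well, at 0.56 with an adjusted p of 0.03462 in limma. Both genes also passed as deposited, with quantile normalization and with array weights, at adjusted p from 0.01601 to 0.04829 in limma. Neither passed with centring on the density peak or with scaling of the arrays, at adjusted p from 0.05542 to 0.1157 in limma. With each prep left out, limma's adjusted p ran from 0.02831 to 0.4338 for *unc-49* and from 0.1134 to 0.2542 for *lgc-34*.

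Among amine-gated subunits only *lgc-39* passed, and acetylcholine-gated chloride channel genes stayed near 0. The 7 amine-gated genes had a median of 0.13, and 1 of them passed (14.3%, against 27.3% of all features). They included the dopamine-gated *lgc-53* at -0.15 ± 0.09, the tyramine-gated *lgc-55* at -0.17 ± 0.16, the serotonin-gated *lgc-50* at 0.13 ± 0.38 and, as the lowest, *lgc-40* at -0.26 ± 0.27. The first 3 of these were named after their values were seen. Of the chloride channel genes gated by acetylcholine and their relatives, 3 were among the 74, from *lgc-47* at -0.21 ± 0.09 to *lgc-48* at 0.10 ± 0.51.

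Ionotropic glutamate receptor genes did not pass either, and the AMPA- and kainate-type genes had means on both sides of 0. The 8 AMPA- and kainate-type genes had a median of 0.11. *glr-1*, the AMPA-type subunit of the command interneurons for locomotion, was the highest and among the most even, with 0.29, 0.37 and 0.46 in preps 1, 2 and 3 (0.37 ± 0.08, limma adjusted p = 0.165). The lowest was *glr-3*, a kainate-type subunit also known as a cold sensor, at -0.13 ± 0.33. Both NMDA-type genes had negative means. *nmr-1* had -0.55, 0.08 and -0.27, a mean of -0.25 ± 0.32, and *nmr-2* had -0.12, -0.75 and -0.65, a mean of -0.51 ± 0.34 (limma adjusted p = 0.4137 and 0.0812). Centred within sectors, *nmr-2* was at -0.51 and passed, with an adjusted p of 0.04582 in limma, as it did with array weights (0.0395). With each prep left out it did not pass, at adjusted p from 0.06883 to 0.3766 in limma.

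The remaining 31 genes, all *lgc* genes but for *glr-9*, fall in no receptor class used here. They hold 5 of the 6 calls, a share of 16.1% that is below the 27.3% of all features. The median of the 31 genes was -0.06. *lgc-32* was among the lowest at -0.46 ± 0.27 (limma adjusted p = 0.1012). The steadiest of them were *lgc-21* at 0.04 ± 0.03 and *glr-9* at -0.06 ± 0.04, both within 0.11 of 0 on every array. The least steady after *lgc-22* was *lgc-18*, with 0.30, 0.44 and -1.12 in preps 1, 2 and 3, followed by *lgc-9*, with -0.10, -0.94 and 0.33. In all, 41 of the 74 genes had arrays of both signs. The other 33 genes (44.6%) had the same sign on all 3 arrays, against 54.6% of all features.

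**Figure D3:**
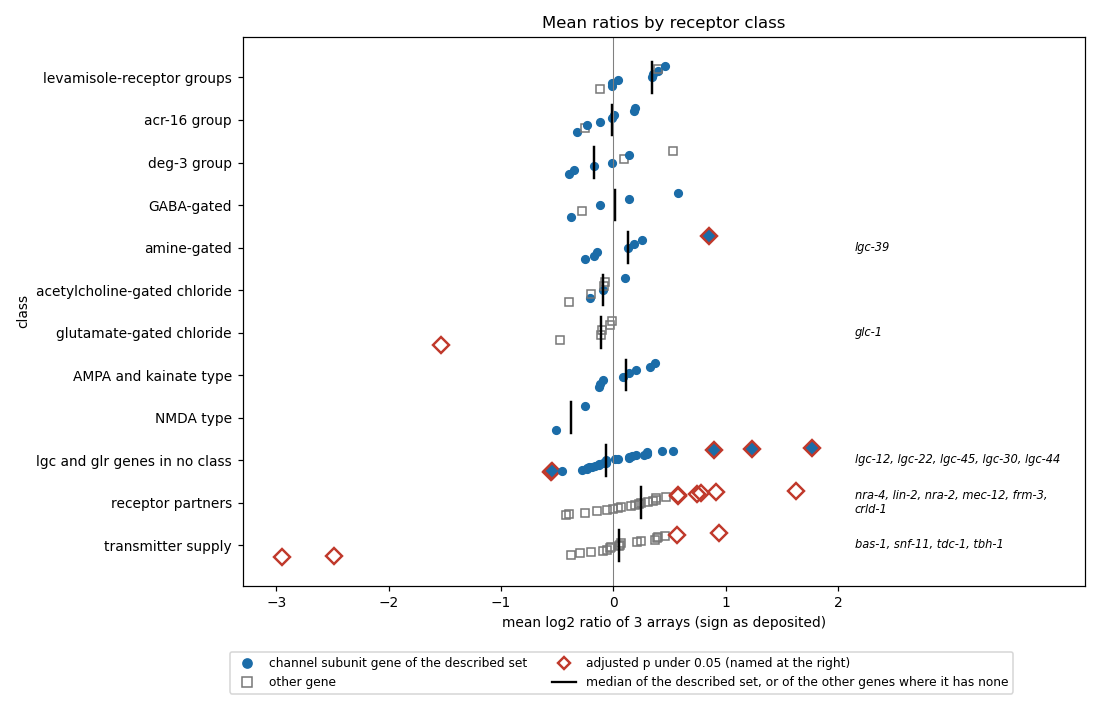
Mean log2 ratio of each gene by receptor class, with filled symbols for the 74 channel subunit genes and open symbols for other genes. Black bars show the median of those of the 74 in a class, or of the other genes where it has none. Red-edged diamonds mark genes past the threshold, whose names stand at the right. Among the classed genes of the 74 only *lgc-39* is marked, and *glc-1*, outside the 74, is marked among the glutamate-gated chloride channels. The widest departures in the plot are *tbh-1* and *tdc-1*, of ligand synthesis.

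Among subunit genes adjacent on a chromosome, none passed the threshold in limma, before or after adjustment. *lgc-13*, *lgc-14*, *lgc-15*, *lgc-16* and *lgc-17* follow one another among the protein-coding genes of chromosome X and had means of -0.22, -0.06, -0.07, -0.23 and -0.28. *acr-2* and *acr-3*, also adjacent on X, were both at 0.35, and *lgc-5* and *lgc-6*, adjacent on chromosome IV, were at 0.30 and 0.27. Adjacent *acr-15* and *acr-16* on chromosome V were at -0.02 and 0.19. These neighbours were found by position but named after their values were seen, and no test of likeness was made. Chromosome X held 25 of the 74 genes, of which 0 passed in limma (1 at an unadjusted p under 0.05) and all had means within 0.5 of 0, while 26.9% of all 2247 named genes on X passed.

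The ratios of the subunit genes differed with the inferred place of the probe, on every array and by the most in preps 2 and 3. The table's probe order was divided into 32 sectors of 25 by 25 probes, a layout inferred from the values. In the first sector of every 4, the 20 subunit genes there had medians of 0.09, 0.24 and 0.18 in preps 1, 2 and 3, and the 54 in the other sectors -0.04, -0.03 and -0.07. These sets hold different genes, so gene and place cannot be told apart from their medians. *lgc-39*, *acr-2*, *acr-12*, *acr-16*, *unc-29* and *unc-38* are among the genes of such first sectors. Centring within sectors took *lgc-39* to 0.66 (limma adjusted p = 0.03192), *acr-2* to 0.23 and *acr-12* to 0.25. It took *acr-16* to 0.0003, *unc-29* to -0.13 and *unc-38* to -0.18, while *acr-8*, in another sector, went to 0.48. The spread between preps was smaller with this centring, with a median SD of 0.19 against 0.26 over the 74 genes, and 7 genes passed. The calls of *lgc-22* and *lgc-30* were lost, at adjusted p of 0.1417 and 0.07677 in limma.

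**Figure D4:**
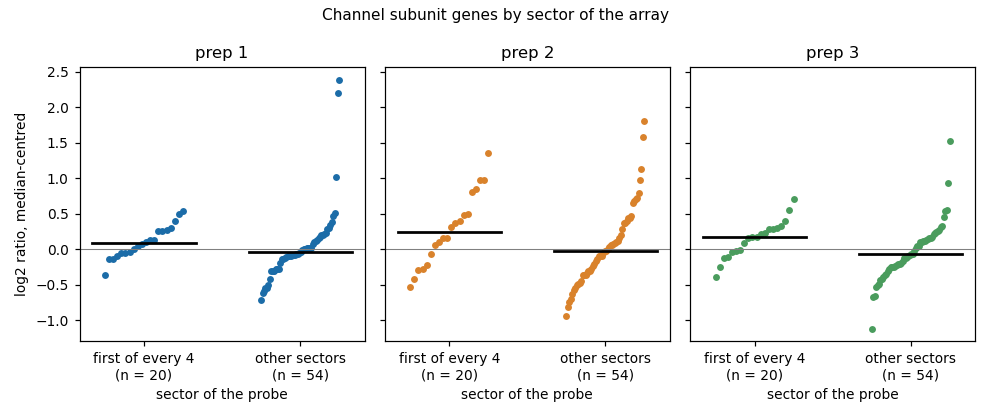
Log2 ratios of the 74 channel subunit genes on each array, with each gene as a point and the median as a bar, for the 20 genes whose probe lies in the first sector of every 4 and the 54 in other sectors. The medians are 0.09 and -0.04 in prep 1, 0.24 and -0.03 in prep 2, and 0.18 and -0.07 in prep 3.

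Ratios of the subunit genes correlated less between arrays than those of all features, over a narrower range of values. Their median SD between preps was 0.26, against 0.29 for all features. Across the 74 genes the Pearson correlation was 0.59 between preps 1 and 2, 0.34 between preps 1 and 3 and 0.42 between preps 2 and 3, against 0.74, 0.81 and 0.76 across all 19075 features. These are correlations across genes that share the reference RNA and the probes, and genes are not independent replicates. Without *lgc-12* and *lgc-22* they were 0.39, 0.33 and 0.43 across 72 genes. The 2 genes with too few values for the test were *acr-7*, at 0.50 and 0.22 in preps 2 and 3, and *glr-10*, at 0.25 in prep 1.

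Subunit genes whose names were not taken by the choice of members, among them the glutamate-gated chloride channels, gave 1 further call. Of 17 measured, 0 were positive and 1 negative past the threshold (2 of them at an unadjusted p under 0.05 in limma), with a median of -0.10. The share past the threshold was 5.88%, against 27.3% of all features. The negative gene was *glc-1*, a glutamate-gated chloride channel subunit known as a target of ivermectin. It had -1.39, -1.38 and -1.83 in preps 1, 2 and 3, a mean of -1.53 ± 0.26 with an adjusted p of 9.68e-05 in limma. The other measured glutamate-gated chloride channel genes ran from *avr-14* at -0.48 ± 0.65 to *glc-4* at -0.01 ± 0.60. *lev-1* and *lev-8*, further subunits of the levamisole receptor, were at 0.40 ± 0.42 and -0.12 ± 0.26.

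Genes for proteins that assemble, place or assist these receptors included several with positive ratios. Of 23 measured, 6 were positive and 0 negative past the threshold in limma (7 at an unadjusted p under 0.05), a share of 26.1% that is close to the 27.3% of all features called in either direction and above the 13.5% called positive. The median was 0.24. *nra-4*, which encodes a protein of the endoplasmic reticulum that sets receptor composition, was at 1.63 ± 0.11 (limma adjusted p = 4.44e-05), and its partner *nra-2* was at 0.78 ± 0.37. *crld-1*, another gene of receptor assembly, was at 0.57 ± 0.10, and *frm-3*, a scaffold gene of muscle synapses, at 0.58 ± 0.32. *lin-2*, at 0.91 ± 0.37, encodes a scaffold that also acts in vulval precursor cells, and *mec-12*, at 0.74 ± 0.10, encodes an alpha-tubulin of touch neurons and not a receptor partner. Without *mec-12* the count was 5 of 22 (22.7%). *ric-3*, the chaperone of acetylcholine receptors, was at -0.26 ± 0.16 and did not pass (limma adjusted p = 0.3658). Without prep 1 the positive genes numbered 3, and without prep 3 likewise 3.

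Genes that make, carry or clear the ligands went both ways. Of 20 measured, 2 were positive and 2 negative past the threshold, 4 in all, against a share of 27.3% of all features, with a median of 0.05. *tbh-1* and *tdc-1*, which make octopamine and tyramine and are known to be active in cells of the reproductive tract as well as in neurons, were at -2.95 ± 0.14 and -2.49 ± 0.29 (limma adjusted p = 5.80e-07 and 2.80e-06). *bas-1*, a decarboxylase gene of serotonin and dopamine synthesis, was at 0.94 ± 0.29, and *snf-11*, a GABA transporter gene, at 0.57 ± 0.22 (limma adjusted p = 0.003195 and 0.04362). *unc-17*, the vesicular acetylcholine transporter gene, was at 0.37 ± 0.38, and *unc-47*, its GABA counterpart, at -0.38 ± 0.18, and neither passed. The positive genes numbered 1 when prep 1, 2 or 3 was left out.

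Markers of body wall muscle were mostly positive, and those of neurons were not. Of 11 body wall muscle markers 8 were positive and 0 negative past the threshold in limma (10 at an unadjusted p under 0.05). This share of 72.7% compares with 13.5% of all features called positive. The marker medians were 1.48, 1.78 and 1.90 in preps 1, 2 and 3. *unc-54* at -0.08, *pat-10* at 0.50 and *hlh-1* at 0.56 did not pass. Among muscle receptor genes, *unc-29*, *unc-38*, *acr-16* and *lev-8* were within 0.2 of 0. *lev-1* was at 0.40 and *unc-49* at 0.58, and none of these receptor genes passed. Of 15 pan-neuronal markers 0 were positive and 2 negative past the threshold in limma (5 at an unadjusted p under 0.05), a negative share of 13.3% against 13.8% of all features, with medians of -0.30, -0.12 and -0.01. In RNA of whole animals, fewer cells of a type and less RNA per cell cannot be told apart, and the part of tissue content in the subunit ratios was not tested. Potassium channel genes, another group of membrane channels, had 7 positive and 4 negative among 63 tested. This share of 17.5% was also below the 27.3% of all features. Their interquartile range was 0.47, and their means ran from -1.89 to 0.97. The difference between the subunit genes and this group was not tested.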

How the data were processed

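The table holds 1 log2 ratio per probe and array for 20000 probes, made and deposited by the authors. The sources used here do not give the scanner, dyes, background correction or normalization. The log base was read from the values: raised as a power of 2, a value gave a whole number of thousandths (within 0.001 of one) for 97.0% to 98.3% of values, and with base e for at most 0.40%. Deposited medians were 0.027, -0.066 and 0.033, close to 0, and whether and how the authors centred the arrays is unknown. Values were missing at 372, 126 and 137 probes in preps 1, 2 and 3. Each array's title carries its own date, so date and prep cannot be told apart.

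The platform's annotation, which is old, lists 1 gene symbol for 15655 probes, several for 198 and none for 4147. Symbols were updated by Entrez identifier with the RefSeq gene table (assembly WBcel235), which matched 15569. This changed 0 of the subunit genes' symbols, and 0 probes with several symbols listed one. Chromosomes and neighbours come from that table. Each array was centred on its median over the 19512 complete probes, and probes of a gene were averaged. The mean ratio was tested against 0 over all features in R 4.3.3 by limma 3.58.1 (intercept-only lmFit, two-sided eBayes, no trend). Of the degrees of freedom 9.8 came from the prior and 2 from the arrays, and the test leaves the spread of the reference out. The number of arrays limits the precision. In data simulated for this comparison on 19075 features, 100 of 100 features moved by 2 log2 units and 88 of 100 moved by 1 were called. Of the 207 calls, 19 were among unmoved features. The simulated errors were normal and independent, and only these features were moved, whereas 27.3% of features passed in the data. The shares called can therefore differ from those in the data.

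Members and lists were chosen with earlier results of these data known. The text names members past the threshold, the 6 highest and 6 lowest, the extremes of each class, the best-known genes and those of extreme SD, and called genes of other lists. Other genes it names, among them neighbours on a chromosome and genes with known ligands or roles, were chosen after their values were seen. Alternatives were other centrings, scalings, moderations, thresholds and namings, at least 2 arrays per feature, every probe on its own, and leaving out each prep. Python 3.11.15 with matplotlib 3.10.9 drew the figures.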

Additional observations from a re-analysis of the deposited data

How the results depend on the processing

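*lgc-12* was positive past the threshold under all 15 alternatives and *lgc-45* under all but the test against 1.5-fold. The other calls among the subunit genes depended on the setting. The 4 positive genes became 6 on the values as deposited and with quantile normalization, and 5 with array weights and with centring within sectors. They became 3 with arrays scaled to one median absolute deviation and at an adjusted p under 0.01. They became 2 when arrays were centred on the density peak, 1 in the test against 1.5-fold and 2 to 4 when each prep was left out. The 2 negative genes became 4 with array weights, 1 with arrays scaled to one median absolute deviation, and 0 with centring on the density peak, an adjusted p under 0.01, the test against 1.5-fold, or any prep left out (0 to 0). The subunit median of -0.01 was 0.02676 with array weights, 0.0462 with centring on the density peak, and -0.004002 to 0.02923 when each prep was left out. Over all features the 2583 positive and 2624 negative calls became 1646 and 1697 at an adjusted p under 0.01, 784 and 875 in the test against 1.5-fold, and the negative ones 1675 with centring on the density peak. Positive receptor partners numbered 3 at an adjusted p under 0.01 (2 without *mec-12*, left out after seeing the data), 1 against 1.5-fold and 3 to 6 when each prep was left out. Positive genes of ligand supply numbered 1 at an adjusted p under 0.01, with centring on the density peak or within sectors and without any prep (1 to 1), and 0 against 1.5-fold in limma. Alternatives were tabulated for 29 named subunit genes. Among these, the signs of 7 that had not passed turned under some alternative, and none of these 7 passed where its sign turned. *unc-29* was at 0.1036 with array weights, 0.04489 with centring on the density peak, 0.02688 with quantile normalization and 0.01784 with scaling. *unc-38* was at 0.003824 with array weights and 0.04296 with centring on the density peak. *glr-3* was at 0.01141 with array weights and 0.02306 with centring within sectors, *lgc-48* at -0.1184 and *lgc-9* at 0.03813 with array weights. When each prep was left out, *unc-29* ran from -0.1569 to 0.09163, *unc-38* from -0.1009 to 0.161, *exp-1* from -0.1864 to 0.004849, *lgc-48* from -0.1707 to 0.3378, *lgc-9* from -0.5196 to 0.1141 and *lgc-18* from -0.411 to 0.3697. The cause was not tested. A single prep left out leaves 2 arrays and a weaker test. Each ratio already sets mid-L3 against the reference on the same array. All arrays belong to 1 group, so no further pairing between arrays was possible.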
